A study of Mus musculus with 3 samples.

Results

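Transcript levels of 10 genes of the blood vessel lining were followed in skeletal muscle of mice. They were chosen by gene symbol as endothelial junction and surface genes (Pecam1, Cdh5, Emcn), receptors (Kdr, Flt1, Tek, Tie1, Robo4) and transcription factors (Sox17, Sox18), and all 10 were found, each on 1 of the 24481 gene rows. The muscle was taken on postnatal day 42 from outbred ICR mice. It was sequenced as 3 libraries, 1 each for a control group (NC), an exercise control group (EC) and a group with exercise and a treatment labelled SQH (ES), in a study whose title names Sasa quelpaertensis leaf extracts and fatigue. The labels give no muscle, exercise schedule, SQH dose or composition, and do not say whether RNA of several animals was pooled. All 3 groups share strain, age and tissue. Muscle identity genes were abundant in each library: all 10 listed fibre genes were detected, and Acta1 and Ttn, the skeletal actin and titin genes, lay at 18.08 or more on the log2 scale.

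Capillaries run alongside every muscle fibre, and their endothelial cells are held together by VE-cadherin (Cdh5) and PECAM-1 (Pecam1). Vascular endothelial growth factor signals to these cells mainly through VEGFR2, the product of Kdr, while VEGFR1, the product of Flt1, binds the same ligand tightly and signals weakly. Angiopoietins act through the receptor TIE2 (Tek), with TIE1 (Tie1) as its partner: angiopoietin-1 activates it and keeps vessels quiescent, while angiopoietin-2 mostly opposes this. SOX17 and SOX18 are members of the SOXF group of transcription factors, which act in arterial, venous and lymphatic development, and ROBO4 is an endothelial receptor of the roundabout family that stabilises vessels.

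Reads came from the 3' end of transcripts, so a level is not expected to grow with transcript length. The annotation of 3' ends and the handling of strand are not given, so gaps and ranks between genes describe deposited levels only. Values are the deposited log2 levels. The control library held about 10.8 M reads, EC the fewest at 8.18 M and ES 12.3 M, as worked out from the spacing of the low values, and read numbers given below are approximate for the same reason. As each group is 1 library, spread between animals is unknown and no significance test was made. A gene counted as called, higher or lower, if its difference was at least 1 on the log2 scale (2-fold) and its linear level averaged 66.5 or more over the 3 libraries, a minimum that 7857 rows reached. Of the 10 endothelial genes 9 reached it, and Tie1, with a mean of 40.1, did not. The ± value beside a log2 difference is the standard error of counting reads only, and intervals are exact 95% intervals of counting. In whole muscle, fewer endothelial cells and less RNA per endothelial cell cannot be told apart.

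The junction genes were close to level in the 3 libraries. Pecam1 stood at 9.21 in the control, 9.48 in EC and 9.32 in ES. Cdh5 stood at 8.68, 8.88 and 8.67 in the same order. For both genes the EC library was the highest, by 0.27 ± 0.08 (Pecam1) and 0.19 ± 0.10 (Cdh5) over the control, short of the 2-fold mark, and for Cdh5 the counting interval, -0.01 to 0.39, included 0. Emcn, which encodes endomucin, a surface sialomucin of capillary and venous endothelium, was likewise highest in EC, at 7.58 against 6.88 in the control and 7.26 in ES. Its difference of 0.69 ± 0.17 between EC and control was the largest in this group of 3, and its counting interval ran from 0.35 to 1.04.

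The VEGF receptor genes differed from the control in opposite directions in EC. Kdr stood at 9.15 in the control, 9.92 in EC and 9.19 in ES, or 605, 822 and 761 reads. Flt1 stood at 9.80, 9.42 and 9.51, or 946, 578 and 949 reads. Kdr was thus high in EC alone and Flt1 was highest in the control. Against the control, EC differed by 0.77 ± 0.08 in Kdr and by -0.38 ± 0.08 in Flt1, and neither reached 2-fold. The order of the 2 receptors changed with it: Kdr minus Flt1 was -0.65 ± 0.08 in the control and -0.32 ± 0.07 in ES, but 0.51 ± 0.08 in EC. Flt1 also gives rise to a soluble form with a 3' end of its own, and how the deposited row treats the 2 forms is not given in the sources used here.

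The angiopoietin receptor genes were lower in level. Tek stood at 6.58 in the control, 7.18 in EC and 7.30 in ES, or 102, 123 and 204 reads. In ES its difference from the control was the highest of the 10 genes after Sox18, at 0.71 ± 0.17 with an interval of 0.36 to 1.07, and it lay 0.60 ± 0.19 above the control in EC. Both exercised libraries were above the control, and they differed from each other by 0.12 ± 0.16, which is less than the counting error. Tie1 stood at 5.49, 5.38 and 5.08, from 48, 35 and 44 reads, and its counting intervals included 0 in all 3 comparisons. The gap of Tek over Tie1 was 1.09 ± 0.25 in the control, 1.80 ± 0.28 in EC and 2.21 ± 0.24 in ES.

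Sox18 departed from this picture. It stood at 6.19 in the control, 0.31 in EC and 7.52 in ES, which corresponds to 78, 1 and 238 reads. The gene was therefore represented by a single read in EC and was higher in ES than in the control. EC minus control was -5.88, with a counting interval of -11.28 to -3.44 on the log2 scale, and ES lay 7.21 above EC, with an interval of 4.79 to 12.59. ES exceeded the control by 1.32 ± 0.19 (0.95 to 1.71), or 2.5-fold, a comparison that does not use the EC library. Sox18 passed the expression minimum through the other 2 libraries: with the minimum taken from the control and EC alone, 1 of the 10 genes was called in that comparison instead of 2, because Sox18 was no longer tested.

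Sox17, the related factor, did not share this pattern. It stood at 6.93 in the control, 6.96 in EC and 6.35 in ES, or 130, 105 and 106 reads. The control and EC were alike to within 0.03 ± 0.19, and ES was the lowest, differing from the control by -0.58 ± 0.19. Sox18 minus Sox17 was -0.74 ± 0.21 in the control, -6.65 ± 1.45 in EC and 1.17 ± 0.17 in ES. Sox7, the other SOXF gene, was below the expression minimum at 4.77, 3.06 and 4.58, from 29, 7 and 31 reads, and is named here after its values were seen.

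Robo4 was the other gene called lower in EC. It stood at 7.04 in the control, 5.42 in EC and 6.39 in ES, or 140, 36 and 109 reads. All 3 libraries differed beyond their counting intervals. EC minus control was -1.62 ± 0.27 (-2.20 to -1.09). ES lay 0.97 ± 0.28 above EC, just short of 2-fold, and its difference from the control was -0.65 ± 0.18. Unlike Sox18, Robo4 thus remained below the control in ES. Set against the junction gene Cdh5 within each library, Robo4 minus Cdh5 was -1.65 ± 0.14 in the control, -3.46 ± 0.25 in EC and -2.28 ± 0.15 in ES.

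**Figure D1:**
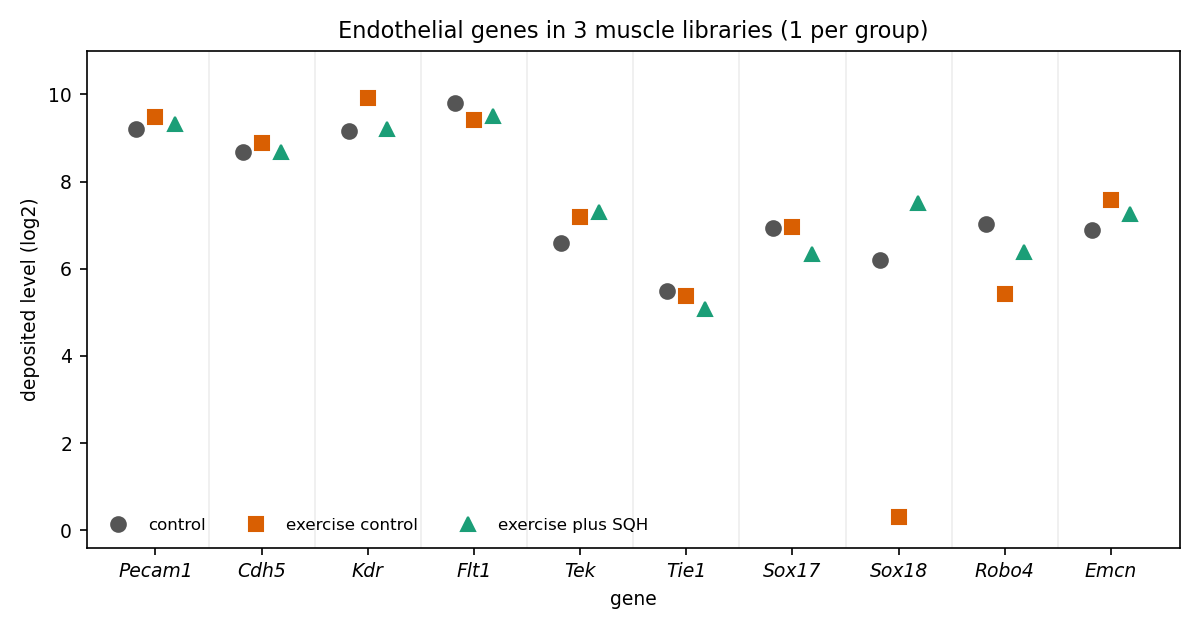
Deposited log2 level (vertical axis) of each of the 10 endothelial genes (horizontal axis) for the control (circles), exercise control (EC, squares) and exercise with SQH (ES, triangles), 1 point per library and no error bars. Sox18 sits at 0.31 in EC and at 6.19 and 7.52 in the other libraries, and Robo4 is lowest in EC at 5.42, whereas Kdr, Pecam1, Cdh5 and Emcn are highest there.

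The first comparison, EC against control, asks how the exercised group differed from the unexercised one. Of the 9 tested genes, Sox18 and Robo4 were called lower and none was called higher. Over all 7857 rows 5.33% were called lower and 2.95% higher. The median difference of the 9 genes was 0.19, beside -0.045 over all rows tested. Leaving aside Sox18 and Robo4, the other 8 genes, Tie1 included, ranged from -0.38 (Flt1) to 0.77 (Kdr) with a median of 0.23, and 6 of the 8 lay above 0. Relative to that median Sox18 was at -6.11 and Robo4 at -1.85. As a single summed quantity, the 10 genes held a linear level of 3048 in the control, 3385 in EC and 3056 in ES, a log2 ratio of 0.15 for EC and 0.00 for ES against the control. The pair was singled out with these values known, so the contrast is a description of these libraries. Their mean linear levels, 85.8 and 86.0, lay close to the expression minimum, and with the minimum at the upper quartile of rows neither was tested. In the same comparison the summed slow-fibre markers differed by -3.53, nerve markers by 1.83 and adipocyte markers by -1.13 (log2), and their part in the values of Sox18 and Robo4 was not tested.

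The second comparison, ES against EC, asks what accompanied SQH among the exercised groups. Here Sox18 was called higher and no other of the 9 genes was called, where 5.68% of all rows were called higher and 2.33% lower. Of the 2 libraries compared, only ES carried Sox18 to the expression minimum (238 reads against 1 in EC), so the call is not independent of its ES level. The median of the 9 genes was -0.16, beside 0.026 over all rows. The other 8 genes ranged from -0.73 (Kdr, ± 0.07) to 0.12 (Tek) with a median of -0.25, and 6 of the 8 lay below 0. Sox18 lay 7.46 above that median and Robo4 lay 1.22 above it. This comparison and the preceding one share the EC library, so their opposite signs are no separate evidence of each other.

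In the third comparison, ES against control, Sox18 was the 1 gene of 9 called, higher, beside 1.76% of all rows called higher and 1.26% lower. The median of the 9 genes was 0.04, beside -0.015 over all rows. The other 8 were divided evenly, 4 above 0 and 4 below, between -0.58 (Sox17) and 0.71 (Tek). Relative to their median Sox18 was at 1.31 and Robo4 at -0.66, so the 2 genes stood on opposite sides of the rest here. This comparison shares the control library with the first and the SQH library with the second.

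**Figure D2:**
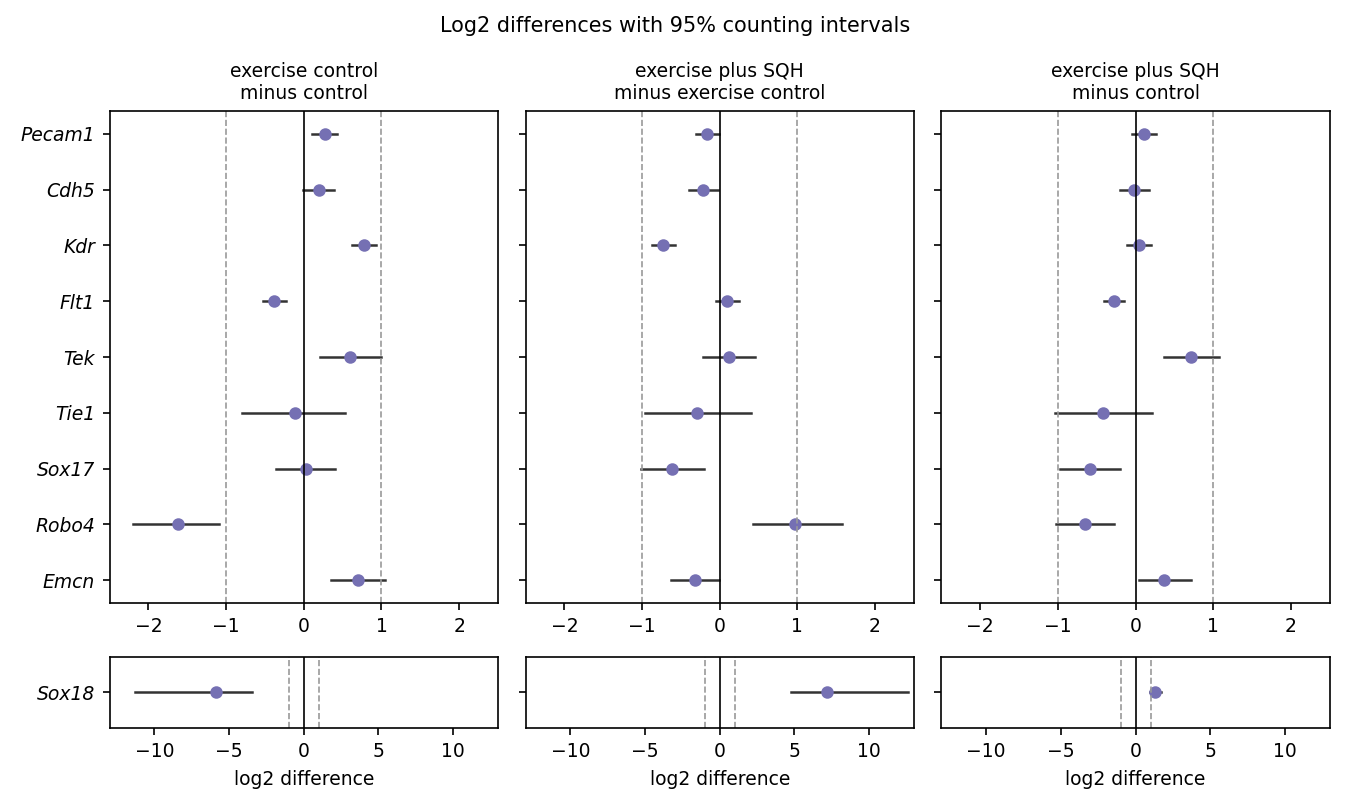
Log2 difference (horizontal axis) of the 10 genes (rows) in the 3 comparisons (columns), with Sox18 in the lower panels on a wider axis. Points are differences, horizontal lines are exact 95% counting intervals and dashed lines mark 2-fold. In the left column Robo4 at -1.62 and Sox18 at -5.88 lie beyond the lower mark, and Kdr at 0.77 has the highest value.

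By level, Flt1 led in the control and in ES, and Kdr led in EC. Flt1, Pecam1, Kdr and Cdh5 took the first 4 ranks in all 3 libraries. Tie1 was the lowest gene in the control and in ES and Sox18 the lowest in EC. Robo4 ranked 5th in the control, ahead of Sox17 at 6.93 and Emcn at 6.88. These 3 neighbours were separated by less than the counting error of their reads (140, 130 and 126). In EC Robo4 at 5.42 and Tie1 at 5.38, with 36 and 35 reads, were likewise not separated.

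Neighbouring transcripts were checked, because the handling of strand in the deposited values is not given in the sources used here. In the mouse build GRCm38, with GENCODE annotation, Sox18 is a protein-coding gene on the minus strand of chromosome 2 from 181669836 to 181671640, and Robo4 a protein-coding gene on the plus strand of chromosome 9 from 37401897 to 37415115. Neither shares exonic bases with another annotated gene. The next gene past the 3' end of Robo4 is Robo3 on the opposite strand, 554 bases away, and it was listed at 0 in all 3 libraries. Among the other 8 genes only Sox17 shares exonic bases (804) with an annotated partner, the opposite-strand transcript Gm37587, which has no row in the files.

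The 3' ends, near which the reads lie, did not set the pair apart in base composition. The last 300 bases of the longest coding transcript were 38.7% G or C in Sox18, the same share as in Kdr, and 45.3% in Robo4, within the range of 28.7% (Cdh5) to 50.7% (Tie1) over the 10 genes. Over 7414 tested genes with such a transcript the median was 42.0% and the 5th and 95th percentiles were 28.7% and 55.7%. The poly(A) signal AATAAA, read on the transcript strand, occurred in the last 50 bases of at least 1 coding transcript of 9 of the 10 genes. Sox18 was the exception and carried the variant ATTAAA there. Of the 7414 genes 73.9% had AATAAA and 87.7% had either form. Whether the signal bears on the level of Sox18 was not tested.

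Promoter sequence was looked at for Robo4, since it was low in the library where Sox18 was nearly unread. Whether the level of Robo4 is related to that of Sox18 was not tested, and the EC value of Sox18 rests on 1 read. The letters ACAAT, the core that SOX factors recognise, were searched on both strands (ATTGT on the other) in the RefSeq promoter windows of build GRCm38.p6, which run from 250 bases before a start site to 50 after it. Windows were at hand for 6 of the 10 genes. Robo4 and Tek held 2 matches each, Emcn held 1, and Kdr, Flt1 and Tie1 held none, where 31.0% of 32851 windows held at least 1. Genes with a match thus included Robo4, at -1.62 in EC against control, and Tek and Emcn, at 0.60 and 0.69. Windows with a match were 41.0% (Emcn), 50.3% (Robo4) and 52.0% (Tek) G or C. Those without a match were 60.3% (Tie1), 60.7% (Kdr) and 70.7% (Flt1). Whether the matches follow base composition was not tested. The stretches before the first annotated start of Robo4 (chr9:37401722-37401896, plus strand) and of Emcn (chr3:137340828-137341061, plus strand) are shown 5′ to 3′, since both genes hold a match and their EC differences have opposite signs, with the matched letters in capitals.
Robo4: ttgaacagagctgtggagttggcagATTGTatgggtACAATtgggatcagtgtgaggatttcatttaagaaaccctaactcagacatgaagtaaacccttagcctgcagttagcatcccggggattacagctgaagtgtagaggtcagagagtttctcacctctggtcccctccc
Emcn: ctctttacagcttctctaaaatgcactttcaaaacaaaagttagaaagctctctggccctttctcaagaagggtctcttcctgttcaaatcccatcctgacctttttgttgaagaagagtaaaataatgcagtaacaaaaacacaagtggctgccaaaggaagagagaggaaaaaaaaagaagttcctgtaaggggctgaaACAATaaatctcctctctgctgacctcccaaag
A match of 5 letters is a description of the sequence and not of binding.

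The genes whose profile was most like that of Sox18 were sought by the distance between log2 levels centred on each gene's mean over the 3 libraries. The nearest were Paox (distance 1.36), which encodes a polyamine oxidase, Ces5a (1.60), a carboxylesterase gene, and Tecrl (1.71), followed by Sdhd (1.87), a subunit gene of succinate dehydrogenase, and Sln (1.87), the sarcolipin gene. Paox and Ces5a had 3 and 2 reads in EC, and Tecrl was listed at 0 there. With Sox18 these were the 4 of 7857 tested rows with at most 3 reads in EC, against 2 such rows in the control and 1 in ES. Rows of this kind reached the expression minimum through the other libraries, and EC held the fewest reads in all. The likeness of these 3 genes to Sox18 thus rests largely on values near the floor in 1 library. Sln is also 1 of the slow-fibre markers described below, and none of the 5 is in the endothelial lists. For Robo4 the nearest were Coa6 (0.031), Cacna1a (0.057), Ikbkg (0.116), Elovl3 (0.128), which is among the adipocyte markers, and Pagr1a (0.135). The distances rest on 3 libraries.

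Genes that work with these receptors were described from 5 lists of ligands, further receptors, junction and adhesion genes, transcription factors, and genes of capillary transport and vascular tone. They held 122 genes other than the 10, of which 81 reached the expression minimum. In EC against the control 1 of the 81 was called higher and 6 lower, or 8.64% in either direction beside 8.29% of all rows, with a median of -0.165. In ES against EC 4 were called higher and 2 lower, or 7.41% beside 8.01%, with a median of -0.006. In ES against the control none was called, beside 3.02% of all rows, with a median of -0.065. The shares were near the background in the first 2 comparisons.

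Among the ligands, the angiopoietin genes showed opposite differences. Angpt1, whose product activates TIE2, stood at 10.49 in the control, 9.07 in EC and 9.82 in ES, and was called lower in EC (-1.41 ± 0.08). Angpt2, whose product mostly opposes that action, stood at 5.74, 6.80 and 5.71 from 57, 94 and 68 reads. Its EC level was called higher against the control (1.06 ± 0.24) and lower in ES than in EC (-1.09 ± 0.23). Both angiopoietin genes were closer to the control in ES than in EC, and neither was called there. Pdgfb, which encodes the growth factor by which endothelium recruits pericytes, stood at 8.22, 7.06 and 8.71. It was called lower in EC (-1.16 ± 0.16) and higher in ES than there (1.65 ± 0.15). Vegfa at 11.64, 11.27 and 11.53 and Vegfb at 11.06, 10.96 and 10.66, which encode ligands of the VEGF family, were not called in any comparison. Vegfc, of the same family, was not called either, at 0.67 ± 0.24 in EC and 0.86 ± 0.22 in ES against the control. Pgf and Figf were below the expression minimum, and Pgf was lowest in ES, from 34, 36 and 16 reads.

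Of the 20 tested receptors 3 were called lower in EC against the control and none higher, beside 5.33% of all rows lower and 2.95% higher, and over the 5 lists together the share called was near that of all rows. Ephb4, the venous ephrin receptor gene, stood at 8.78 in the control, 6.74 in EC and 8.98 in ES, with differences of -2.03 ± 0.17 from the control and 2.24 ± 0.16 between the exercised libraries. Unc5b, a netrin receptor gene of endothelial tips, stood at 6.57, 5.06 and 7.21, and differed by -1.51 ± 0.31 and 2.15 ± 0.29. Both genes, like Sox18, were lowest in EC, and in ES they lay above the control, by 0.20 ± 0.09 and 0.64 ± 0.18. Ramp2, the partner of the adrenomedullin receptor, stood at 10.01, 8.99 and 9.09, and was called lower in EC (-1.02 ± 0.08) but stayed near that level in ES. Against the control, where no receptor was called in ES, the 2 most abundant receptors were Adgrf5 (-0.53 ± 0.05) and Cd93 (-0.12 ± 0.05).

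Junction and adhesion genes gave no call in EC against the control, and the 2 most abundant, Ctnnb1 (-0.25 ± 0.05) and Egfl7 (-0.20 ± 0.05), differed little. Between the exercised libraries Jam3 was called higher (1.22 ± 0.19) and F11r, which encodes JAM-A, lower (-1.10 ± 0.11) with SQH. Of the 17 tested transcription factor genes Hes1, a Notch target, was the only one called in any comparison. It stood at 9.89, 8.52 and 8.99 and was lower in EC (-1.37 ± 0.09). Ets2 (0.44 ± 0.04) and Epas1 (0.40 ± 0.05), the most abundant of these factors, were above the control there. None of the 18 tested genes of capillary transport and vascular tone was called in any comparison. The most abundant of them were Lpl, the lipoprotein lipase gene, at 14.65, 13.85 and 14.53, and Ptrf, a caveolar coat gene, at 13.89, 13.75 and 13.54.

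**Figure D3:**
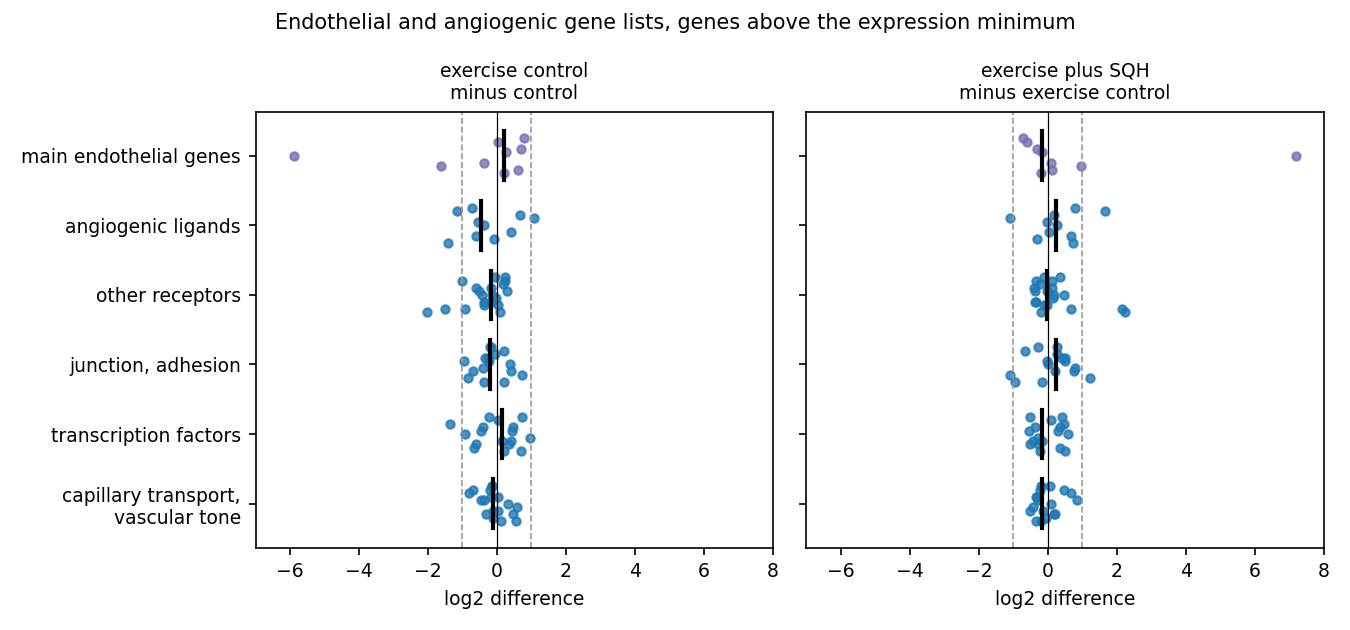
Log2 differences (horizontal axis) of the genes above the expression minimum in the main endothelial genes and 5 related lists (rows), for EC minus the control (left) and ES minus EC (right). Each point is a gene, black bars are list medians and dashed lines mark 2-fold. Sox18 is the outermost point in both panels, at -5.88 and 7.21, and the list medians lie between -0.46 and 0.23.

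Markers of other cells and fibre types differed between the same libraries. The 12 slow-fibre markers had a summed linear level of 571200 in the control, 49610 in EC and 452500 in ES, and 11 of 12 were called lower in EC. The 8 nerve and Schwann cell markers summed to 1249, 4430 and 1346, with all 5 tested called higher, and the 9 adipocyte markers to 1200, 548 and 1520, with 3 of 4 tested called lower. Lep, an adipocyte marker, was at 0 in all libraries. Over all rows tested, 5.33% were called lower and 2.95% higher in EC against the control. Lymphatic endothelial markers were low, at 554, 365 and 638 summed over 7 genes. Only 3 of the 7 were tested. Of these Prox1, which SOX18 is known to switch on in lymphatic development, stood at 6.28, 4.64 and 6.73 from 83, 21 and 138 reads. It was called lower in EC (-1.64 ± 0.35) and higher in ES than there (2.08 ± 0.34). Pdpn (-0.49 ± 0.17) and Itga9 (-0.13 ± 0.18 in EC against the control) were not called in any comparison. Whether the Prox1 level is related to that of Sox18 or of the slow-fibre markers was not tested.

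The summed levels of vessel wall, connective tissue and blood markers differed from the control by at most 0.63 (log2). Pericyte and smooth muscle markers summed to 10990, 8253 and 7366 over 13 genes, and the decline rested on Rgs5, a pericyte gene at -1.49 ± 0.04 in EC and -1.62 ± 0.03 in ES against the control. Without Rgs5 the other 12 genes summed to 5218, 6198 and 5485, above the control in both exercised libraries. That sum is weighted to its most abundant gene, Acta2, at 0.495 ± 0.04 in EC and 0.153 ± 0.04 in ES against the control. Gene by gene the markers were mixed. Of the 11 tested, 6 lay below 0 and 5 above 0 in EC against the control, and likewise in ES against the control. Of the 11 tested, Rgs5 was called lower and Lmod1, a smooth muscle gene, higher (1.36 ± 0.12) in EC against the control. Fibroblast markers summed to 11330, 16730 and 13360 over 11 genes, with Tcf21 at 0 throughout, and platelet and erythroid markers to 10610, 10190 and 10010 over 10 genes, with Gp9 at 0. Macrophage and leukocyte markers were scarce, at 370, 308 and 574 over 12 genes, with Cd3e at 0. The 12 fast-fibre markers summed to 669800, 891400 and 580500, with none called in EC against the control, and the summed level of the 10 general fibre markers differed from the control by -0.11 (log2) in EC and 0.08 in ES.

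Genes that respond to low oxygen or to flow were counted as a last list, 10 of whose 15 genes were tested. Their median was -0.23 in EC against the control, 0.39 in ES against EC and 0.30 in ES against the control. In EC against the control, Pfkfb3 was called higher (1.90 ± 0.08), and Cyr61 (-4.06 ± 0.17) and Ctgf (-1.11 ± 0.07) were called lower. Klf2, the flow-induced endothelial factor gene, stood at 8.82 in the control, 9.79 in EC and 9.51 in ES, and its largest difference, 0.96 ± 0.08 (EC against control), was just short of 2-fold.

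**Figure D4:**
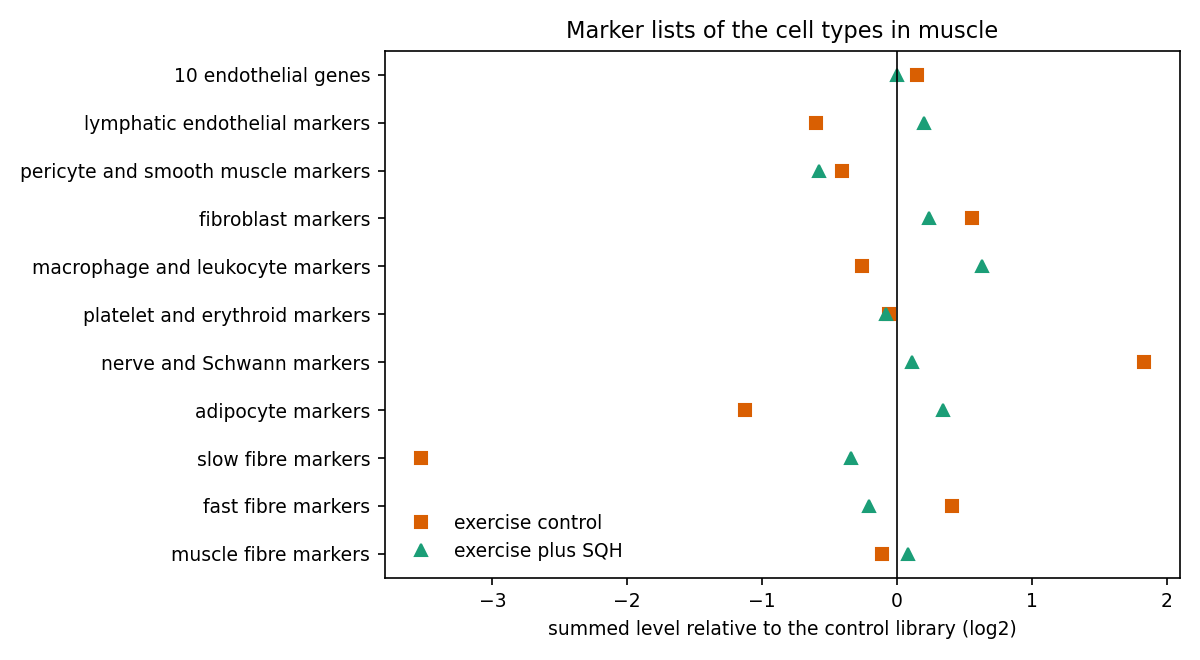
Summed linear level of each marker list relative to the control library (horizontal axis, log2), for EC (squares) and ES (triangles), 1 library each. The 10 endothelial genes lie at 0.15 and 0.00, while slow-fibre markers lie at -3.53 and -0.34 and nerve markers at 1.83 and 0.11.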

How the data were processed

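Skeletal muscle RNA of 3 samples was made into QuantSeq 3' libraries, per the labels' protocols. Bowtie2, edgeR and mm10 appear in the submitters' processing notes with neither version nor role. For strand handling, annotation and any filter, the setting is not given in the sources used here. The deposited values are log2 levels from 0 to 19.83. Low linear values (up to 9) bunched at multiples of a step of 0.940 in NC, 1.18 in EC and 0.770 in ES, and dividing by it gave approximate reads. A level of 0 stands for no read, or for at most 1 in NC and ES. Since the bunches were too wide for whole reads in EC and ES (96.5% and 86.4% of low values near a multiple), count models were not used.

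Groups came from the sample titles. Differences of the deposited log2 levels were computed for all rows, and genes were called by size. Counting errors treat approximate reads as Poisson counts. They cover no animal or preparation variation, and reads that are PCR copies would make them too small. The step and the call rule were tested on simulated data with steps set near those found. The simulated bunches were narrower than those in ES, so the test does not cover how well reads are estimated in that library. The 10 genes and the 16 lists were chosen with earlier results of these data known. Named genes were the 10, every called gene of the endothelial lists or the 2 most abundant where none was called, up to 3 called genes of other lists (printed here only where a result on the 10 turns on them), and the 5 nearest profiles, leaving out clone and model names. Symbols on several rows were left out of lists. Some listed genes are not reported here by name. Alternatives were other minima, scalings, an added constant and other fold limits. Annotation was GENCODE M21 (GRCm38), which holds 95.7% of the symbols. Python 3.11.15, numpy 2.4.6, pandas 2.3.3 and scipy 1.17.1 were used.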

Additional observations from a re-analysis of the deposited data

How the results depend on the processing

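The direction of the difference of each of the 10 genes was the same after centring, quantile normalization and adding 8 on the linear scale as in the values reported, in all 3 comparisons. Comparisons are listed as first (EC against NC), second (ES against EC) and the third (ES against NC). The distance of Sox18 from the median of the other 8 genes became -3.36 and 4.59 in the first 2 when 8 was added, as a larger constant compresses low levels. With the minimum at the upper quartile none of the 10 genes was called (0 in each comparison), because Sox18 and Robo4 were no longer tested; 233, 218 and 58 genes were called in all, and 3 related genes in the second comparison. With no minimum 4259, 4198 and 3367 genes and 22, 21 and 11 related genes were called. At 1.5-fold the counts were 2012, 1888 and 1082 over all genes, 5, 4 and 3 of the 10, and 25, 17 and 17 related genes. At 3-fold they were 167, 159 and 44 over all genes, 1 and 3 related genes in the first 2, and 0 of the 10 in the third. With the minimum taken from the 2 libraries compared, an alternative chosen after seeing the data, 1 of the 10 was called in the first. Of calls over all genes in the first comparison, 35.6% were higher ones as deposited (232 higher, 419 lower) and 45.7% after centring (293 and 348). No paired analysis was possible because each group has 1 library. Sox18 in EC rests on 1 read, and no value in the first 2 comparisons can be had without that library.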
